A study of Mus musculus with 2 samples.

Results

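The genes examined here encode the mitochondrial protein import machinery, and their transcripts were measured in single mouse regulatory T cells. Every gene whose symbol starts with Tomm or Timm was taken, which gave 27 of the 32285 genes counted. By the location of the encoded protein, 9 belong to the outer membrane, 16 to the inner membrane and intermembrane space, and 2 to neither. The choice among genes used names alone and no measured value, although the family was proposed with earlier results of these data known.

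Regulatory T cells (Treg), the CD4 T cells that restrain immune responses, had been labelled with MitoTracker, a dye taken up by mitochondria, and sorted into a bright population (Mito-high) and a dim population (Mito-low). Each population gave 1 library of 10x Genomics 5′ single-cell RNA sequencing. The labels name no treatment, genotype, strain, tissue, sex or age and no number of animals. Neither population was replicated. Every interval below is a 95% interval for counting error only, each comparison is between 2 libraries, and cells are not replicates.

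Most mitochondrial proteins are made in the cytosol and must be imported. The TOM complex of the outer membrane recognises them through receptors and passes them through a beta-barrel channel. Presequence proteins then enter the matrix through the TIM23 complex, driven by a motor anchored by Timm44, while carrier proteins are escorted by small Tim chaperones across the intermembrane space to the TIM22 complex. Activated and dividing T cells are known to enlarge their mitochondrial mass, which requires import of newly made proteins.

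A barcode was kept as a cell if it held at least 500 genes and at most 20% mitochondrially encoded UMIs (unique molecular identifiers, 1 per captured transcript). This left 12217 of 12352 barcodes in Mito-high and 11679 of 11901 in Mito-low, with median depths of 6132 and 4668 UMIs. The barcodes deposited for Mito-high are more than the cells that the labels say went into its library, so some kept barcodes may not be single cells. Both libraries carried the T cell gene Cd3e in 89.3% and 89.8% of cells and the Treg genes Ctla4 in 91.7% and 93.3% and Ikzf2 in 83.1% and 92.8%. Foxp3, the defining Treg transcription factor, was detected in 15.99% and 17.4% of cells. The Treg genes Tnfrsf18 and Tnfrsf4 were in 67.25% and 75.1% of Mito-high cells and in 68.9% and 77.4% of Mito-low cells. The Treg gene Il2ra was in more cells of Mito-high, 57.6% against 39.1%. The T cell genes Cd3d, Trac and Cd4 were in 96.1%, 88.75% and 50.3% of Mito-high cells and in 93.3%, 90.2% and 49.5% of Mito-low cells. The 2 erythroid genes summed to 0.111 and 0.231 counts per 1000000 UMIs (CPM), 3 NK genes to 0.690 and 0.876 (Ncr1 at 0 in both), 5 B cell genes to 19.1 and 17.0 and 2 CD8 genes to 9.03 and 5.47. The 5 myeloid genes summed to 82.1 and 104 CPM, nearly all of it Cst3, and the 3 plasma cell genes to 39.6 and 43.9, nearly all Xbp1. The libraries shared 38 barcodes.

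Cells were placed in 4 states by genes outside the import list. Cycling cells had at least 3 of Pclaf, Birc5, Mki67, Top2a, Rrm2 and Cdca8, effector cells at least 2 of Ccl5, Il10 and Klrg1, and resting cells at least 1 UMI of Igfbp4, in that order of precedence. Mito-high held 2678 resting, 142 effector, 561 cycling and 8836 other cells. Mito-low held 185 resting, 1525 effector, 38 cycling and 9931 other cells, so its cycling and resting values and the Mito-high effector values carry the widest intervals. Median depth differed between states as well, from 5852 UMIs in other to 16569 in cycling cells of Mito-high, and from 4555 to 10631.5 in Mito-low.

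The 27 genes lie on 16 chromosomes. Of 24 members with an entry in the RefSeq promoter table (build GRCm38.p6, 250 bases before to 50 after the start), 6 (25%) held the E-box letters CACGTG, a palindrome read alike on both strands, against 8.09% of all genes in the table. The ETS letters CCGGAAGT, searched on both strands, were in 7 members (29.2%) against 4.31% of all genes. The palindromic consensus of NRF1 was in 0 members, against 1.07% of all genes. These matches describe the letters only. The E-box stretches are shown for Timm8a1 and Timm9, the measured members among the 6 that stood furthest apart between the libraries, and for the receptor gene Tomm20. Timm50 and Timm8b, which lead the cycling comparison of Mito-high, do not hold these letters in this window. The stretches have the matching letters in capitals, written 5′ to 3′ on the gene's strand:
Timm8a1, chrX:134541891-134541916, minus strand, 236 bases before the start: ttcagtggacCACGTGggatgaagca
Timm8a1, chrX:134541631-134541656, minus strand, 24 bases after the start: gtcacccagaCACGTGaaggtcggca
Timm9, chr12:71136718-71136743, minus strand, 58 bases before the start: tacattttccCACGTGgtaacgaatc
Timm9, chr12:71136661-71136686, minus strand, 1 base before the start: tcactgccccCACGTGttctcagctt
Tomm20, chr8:126946032-126946057, minus strand, 126 bases before the start: acgccacaaaCACGTGctgcccctga
Timm10, the partner of Timm9, held both letter strings side by side. They are shown here as 1 stretch each, from the gene's plus strand:
Timm10, E-box, chr2:84827039-84827064, 28 bases after the start: ggaagtgaccCACGTGcttcttattt
Timm10, ETS, chr2:84827027-84827054, 16 bases after the start: agacttccttCCGGAAGTgacccacgtg

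Taken as a sum, the import transcripts made up 0.208% of all UMIs captured in Mito-high, against 0.192% in the other library. The summed level was 2077 CPM (2068 to 2087) in Mito-high against 1922 CPM (1911 to 1934) in Mito-low, or 15.3 and 9.96 UMIs per cell. Of the 27 genes, 22 reached the level needed to compare the libraries (a mean of at least 10 CPM and at least 20 UMIs in all). Of these, 17 were higher in Mito-high, whereas 31.7% of all 7358 genes that reached the level were. Expressed as Mito-high over Mito-low, the median log2 ratio was 0.17 for the import genes and -0.15 for all genes. The differences were small: 1 import gene was at least 1.5-fold higher (3.47% of all genes were), and 0 were at least 1.5-fold lower (10.3% of all genes).

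**Figure D1:**
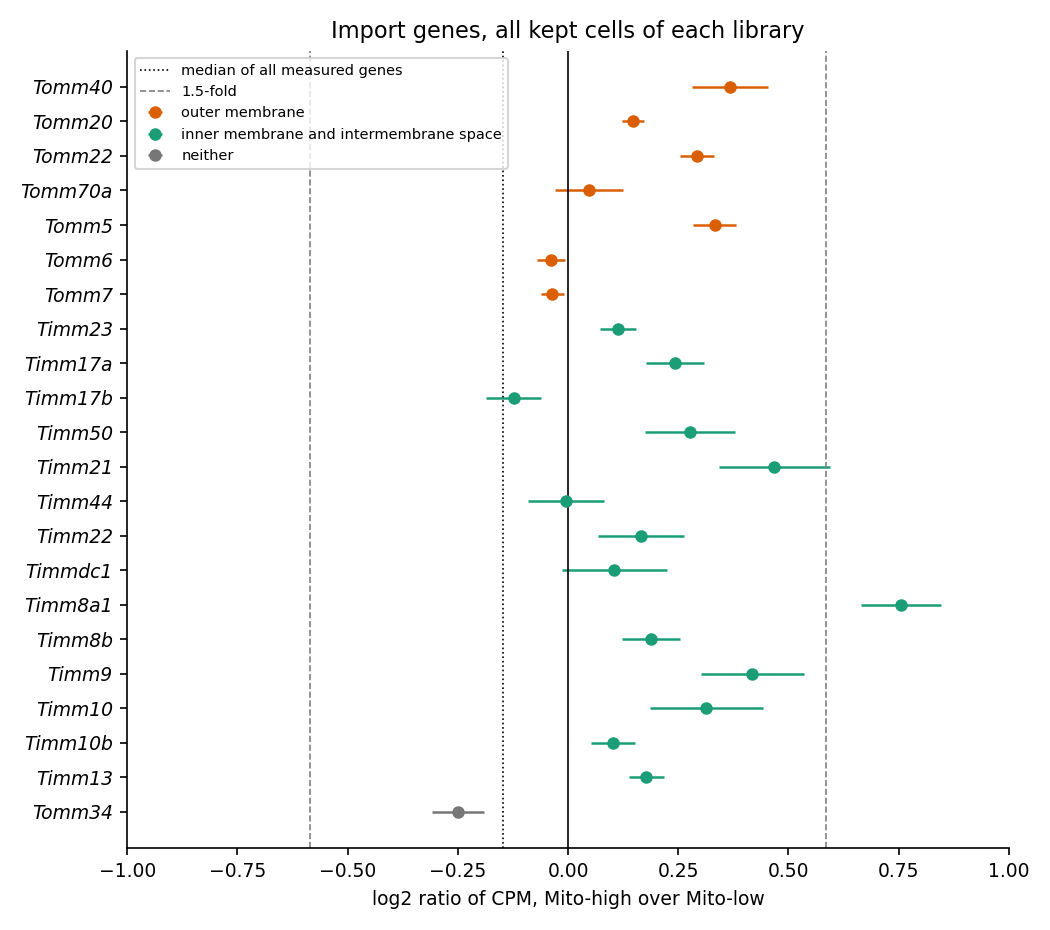
Log2 ratio of CPM, Mito-high over Mito-low, for the 22 import genes that reached the level, over all kept cells. Points are coloured by the location of the protein, bars are 95% intervals for counting error, the dotted line is the median of all genes at -0.15 and the dashed lines mark 1.5-fold. Timm8a1 alone lies past a dashed line, at 0.75.

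At the outer membrane, 5 of 7 measured genes were higher in Mito-high (31.7% of all genes). Their median log2 ratio was 0.15 against -0.15 for all genes. Tomm40, the channel of the TOM complex, stood at 35.0 CPM in Mito-high and 27.2 in Mito-low, a log2 ratio of 0.37 (0.28 to 0.45). Tomm22, the central receptor that holds the complex together, stood at 167 and 137 CPM, a ratio of 0.29 (0.25 to 0.33). Tomm20, the receptor for presequences, stood at 363 and 328 CPM, a ratio of 0.15 (0.12 to 0.17). All 3 differed by more than counting error, in the same direction. Tomm70a, the receptor that takes carrier precursors from cytosolic chaperones, was 38.1 and 36.8 CPM, and its interval held 0 (-0.03 to 0.12).

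The small TOM subunits, which stabilise the complex, did not move as a block. Tomm5 was higher in Mito-high, at 110.0 against 87.3 CPM, a ratio of 0.33 (0.28 to 0.38). Tomm6 was 218 and 224 CPM, a ratio of -0.04 (-0.07 to -0.01). Tomm7 was 323 and 331 CPM, a ratio of -0.04 (-0.06 to -0.01). Tomm6 and Tomm7 thus lay slightly below 0 on the CPM scale, and both turned above 0 with the scaling by trimmed mean (TMM), under which each library ratio is 0.19 higher.

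The inner membrane and intermembrane space genes had a median log2 ratio of 0.18 against -0.15 for all genes. Of these, 12 of 14 were higher in Mito-high (31.7% of all genes). In the TIM23 complex, Timm21, the subunit that contacts the TOM complex, was 17.5 and 12.6 CPM, a ratio of 0.47 (0.34 to 0.59). Timm50, the receptor that takes presequences from TOM, was 24.3 and 20.1 CPM, a ratio of 0.28 (0.18 to 0.38). Timm17a and Timm17b are alternative core subunits of the same channel, and over all cells they pointed in opposite directions. Timm17a was 56.2 and 47.5 CPM, a ratio of 0.24 (0.18 to 0.31), and Timm17b was 55.4 and 60.4 CPM, a ratio of -0.12 (-0.19 to -0.06). With TMM scaling Timm17b came to 0.06, still below Timm17a. In cells of 4000 to under 6000 UMIs, Timm17a was 0.075 (-0.05 to 0.20) and Timm17b -0.35 (-0.47 to -0.23). In cells of 10000 or more UMIs, Timm17a was 0.44 (0.29 to 0.60) and Timm17b 0.03 (-0.11 to 0.18). In no depth bin were both intervals clear of 0 on opposite sides. Timm23, the central channel subunit, was 140 and 129 CPM, a ratio of 0.11 (0.07 to 0.15). Timm44, which anchors the import motor, was the gene nearest to equal, at 30.6 and 30.7 CPM (-0.09 to 0.08).

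Over all cells, all 6 measured small Tim chaperones were higher in Mito-high (31.7% of all genes were), with a median of 0.25. Timm8a1, the partner of Timm13, was the only import gene at least 1.5-fold apart, at 37.8 CPM against 22.4, a 1.69-fold difference and a log2 ratio of 0.75 (0.66 to 0.85). Timm9 was 20.1 and 15.1 CPM, a ratio of 0.42 (0.30 to 0.53). Its partner Timm10 was 16.02 and 12.9 CPM, a ratio of 0.31 (0.19 to 0.44). Timm13 was 156 and 138 CPM, a ratio of 0.18 (0.14 to 0.22), so the 2 partners of the Tim8-Tim13 pair differed from each other by more than their intervals. Timm8b and Timm10b had ratios of 0.19 and 0.10, also above 0. In cells of 4000 to under 6000 UMIs, Timm8b was below 0, at -0.16 (-0.29 to -0.03). Timm13 and Timm10b stood there at -0.05 and -0.07, with intervals that held 0. Timm8a1 and Timm9 stood above 0, at 0.43 and 0.30, as did Timm10 at 0.23 (-0.02 to 0.48). From 6000 to under 10000 UMIs the signs of these genes were the same, with Timm8b at -0.12 (-0.23 to -0.0008). In the TIM22 complex, the carrier translocase, Timm22 was 25.6 and 22.8 CPM, a ratio of 0.17 (0.07 to 0.26). Timmdc1, an assembly factor of respiratory complex I with a Tim17-like domain, was 16.5 and 15.3 CPM (-0.01 to 0.22).

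Tomm34, a cytosolic co-chaperone despite its name, was the lowest of the 22, at 58.0 CPM in Mito-high and 69.0 in Mito-low, a ratio of -0.25 (-0.31 to -0.19). The remaining 5 genes fell under the level. Tomm40l, a paralog of the channel, was 8.52 and 8.20 CPM, and Timm29, a TIM22 subunit, was 7.71 and 8.76 CPM. Timm8a2, a paralog of Timm8a1, was 0.934 and 0.595 CPM. Tomm20l gave 12 and 13 UMIs in all, and the antisense RNA Tomm6os gave 8 and 10.

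Depth and signs of RNA quality moved with the library difference. In the cells of 10000 or more UMIs, 2174 cells against 628, the summed level was 2397 CPM in Mito-high against 2043 in Mito-low, and 21 of 22 genes were higher in Mito-high (37.7% of all genes), with a median of 0.26 against -0.13. In shallower cells the sums lay closer, and in each bin below 6000 UMIs Mito-high was lower beyond counting error. The sums were 1512 CPM against 1696 below 3000 UMIs and 1807 against 1910 from 3000 to under 4000. They were 1840 against 1888 from 4000 to under 6000, and 1969 against 1967 from 6000 to under 10000. In each of the 3 bins from 3000 to under 10000 UMIs, 11 of 22 genes were higher, where 35.3%, 27.8% and 28.4% of all genes were, so the members' share above 0 was over that of all genes while the sums in Mito-high were lower than in Mito-low or within counting error of them. The members' medians in those bins were -0.01, -0.01 and 0.01, against -0.13, -0.18 and -0.15 for all genes. Below 3000 UMIs, 9 of 23 genes were higher (45.9% of all genes). Among other cells alone, the sums were 2354 against 2058 CPM in the deepest bin, 2015 (1996 to 2033) against 1952 (1929 to 1975) from 6000 to under 10000 UMIs, 1858 against 1875 from 4000 to under 6000, and 1828 against 1900 from 3000 to under 4000. Depth and transcript content of a cell cannot be told apart in these data. The nuclear RNA Malat1 took 0.959% of UMIs in Mito-high against 1.81% in Mito-low, and Gm42418, a gene that collects ribosomal RNA reads, took 0.146% against 0.402%. Their part in the library ratios was not tested.

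**Figure D2:**
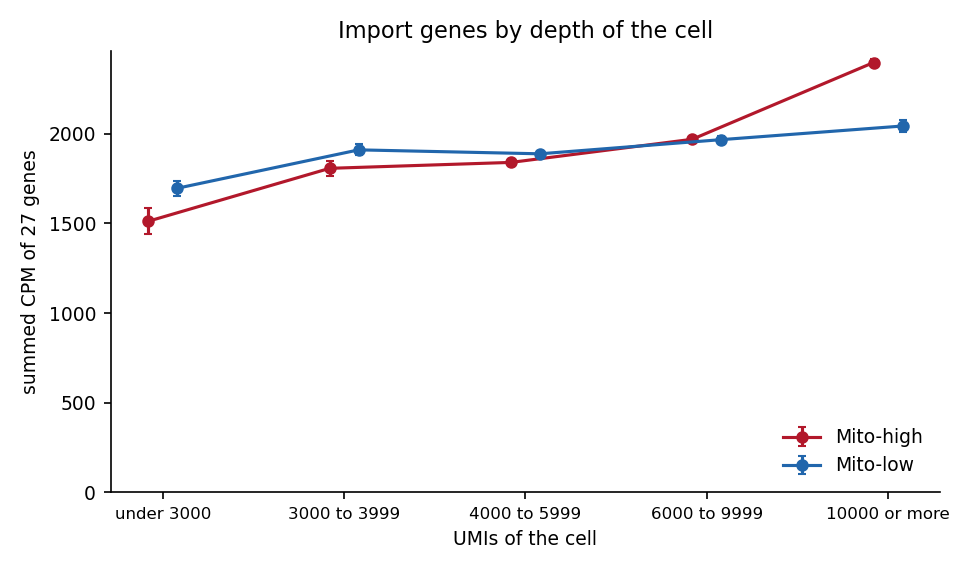
Summed CPM of the 27 import genes in cells grouped by their total UMIs, for each library, with 95% intervals for counting error. In each bin below 6000 UMIs Mito-high lies lower with separate intervals, at 1512 and 1696 CPM below 3000 UMIs. From 6000 to under 10000 UMIs the libraries stand at 1969 and 1967 CPM. In the deepest cells Mito-high lies higher, at 2397 and 2043 CPM.

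Timm8a1 was higher in Mito-high in shallower cells as well. Its log2 ratio was 0.39 (0.01 to 0.74) in cells of 3000 to under 4000 UMIs, 0.43 (0.25 to 0.61) in cells of 4000 to under 6000, 0.48 (0.32 to 0.65) in cells of 6000 to under 10000 and 0.68 (0.49 to 0.88) in the deepest cells. Its level was thus higher in Mito-high beyond counting error in each of these 4 bins; below 3000 UMIs the ratio was 0.11 (-0.82 to 0.84). Tomm20 showed a smaller difference of the same kind, from 0.03 (-0.06 to 0.12) at 3000 to under 4000 UMIs to 0.14 (0.10 to 0.19) at 6000 to under 10000 and 0.22 (0.16 to 0.28) in the deepest cells. Timm50 had no interval clear of 0 below 10000 UMIs, with ratios of -0.61, -0.24, 0.19 and -0.18 in the 4 bins from the shallowest upwards, and stood at 0.49 (0.27 to 0.72) in the deepest cells.

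Across states, cycling cells had the highest import transcript share in both libraries and resting cells the lowest. Outer membrane transcripts summed to 1156 CPM in resting, 1245 in other, 1363 in effector and 1575 in cycling cells of Mito-high. In Mito-low the same order held, with 1097 (1037 to 1160), 1169, 1230 and 1535 CPM (1418 to 1659). Inner membrane and intermembrane space transcripts ran from 639 CPM in resting through 740.5 and 876.5 to 1060 in cycling cells of Mito-high. In Mito-low they ran from 611 through 670 and 697 to 841 CPM. The order of the 4 states was the same at both membranes and in both libraries over cells of all depths. For cells of 10000 or more UMIs a different measure was taken, the median log2 ratio of single genes over other cells. By that measure the order was not the same in Mito-low, at -0.07 for effector and 0.05 for resting cells. The 16 resting cells of that depth in Mito-low had 14 of 23 genes above other cells (56.8% of all genes, with a median of 0.09). In Mito-high 2 of 23 were above, with a median of -0.24 against -0.01 for all genes (47.8% above). Neighbouring states in this order had separate intervals, except outer membrane transcripts of resting and other cells in Mito-low, where 1037 to 1160 CPM overlapped 1159 to 1178.

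**Figure D3:**
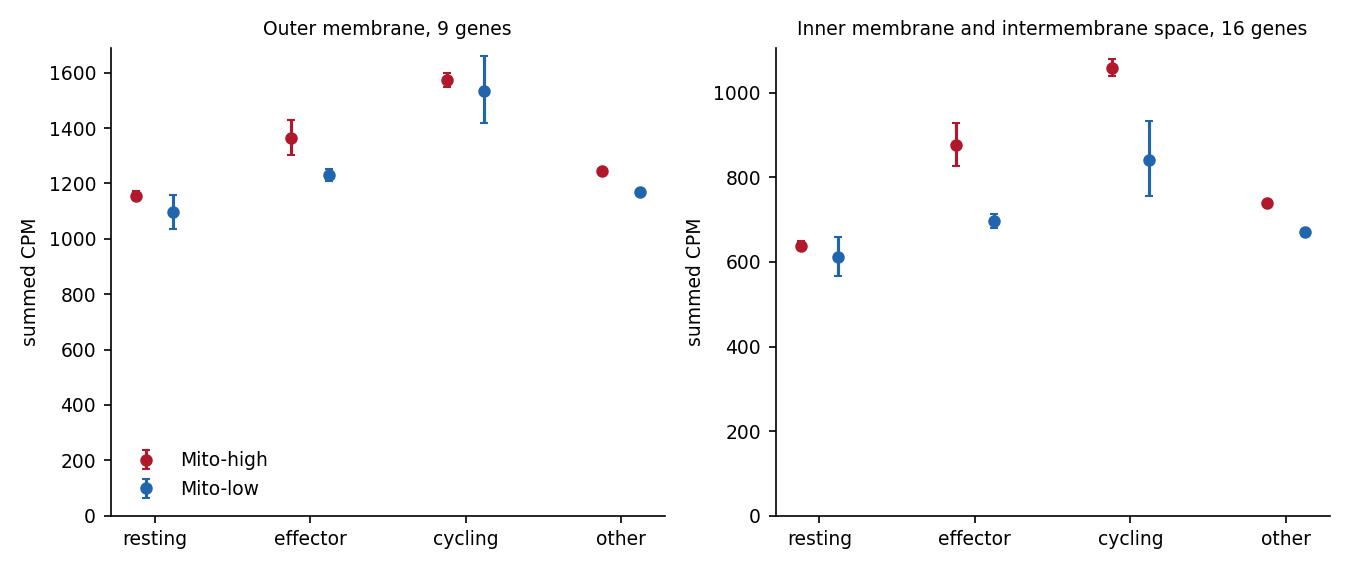
Summed CPM of the 9 outer membrane genes (left) and the 16 inner membrane and intermembrane space genes (right) in resting, effector, cycling and other cells of each library, with 95% intervals for counting error. Cycling cells stand highest in both panels and resting cells lowest.

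In Mito-high, all 22 measured import genes were higher in cycling than in other cells, where 50.9% of all genes were. The median log2 ratio was 0.52 against 0.01 for all genes, and 6 genes were at least 1.5-fold higher (16.1% of all genes). Inner membrane and intermembrane space genes had a median of 0.53 and outer membrane genes 0.39. Timm50, the presequence receptor of TIM23, led with 44.5 CPM in cycling against 22.6 in other cells, a ratio of 0.98 (0.82 to 1.14). Timm8b followed with 93.9 against 54.4 CPM, a ratio of 0.79 (0.68 to 0.89). The other small Tim genes past 1.5-fold were Timm8a1, at 58.6 against 36.6 CPM, and Timm9, at 29.3 against 18.6. The channel gene Tomm40 was 51.0 against 33.7 CPM, a ratio of 0.60 (0.45 to 0.74), and Timm17a was 80.6 against 53.7 CPM. At the other end were the presequence receptor Tomm20, nearly level at 381 against 362 CPM (0.02 to 0.12), the motor anchor Timm44, at 34.1 against 31.1 CPM (-0.04 to 0.30), and Tomm34, with a ratio of 0.21. The receptors Tomm22 and Tomm70a lay between, at 0.37 and 0.39, as did Timm23 at 0.55 and Timm22 and Timm10 at 0.52. Tomm20 and its TOM partners thus differed in how far they stood above other cells.

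In Mito-low the 38 cycling cells gave 18 of 23 genes higher (55.6% of all genes were), with a median of 0.36 against 0.08. Among them, 6 genes were at least 1.5-fold higher (21.5% of all genes), and 5 of the 6 had intervals above 0. Timm8b, high in cycling cells of Mito-high too, was 79.8 against 48.1 CPM, a ratio of 0.77 (0.19 to 1.22). Tomm6 was 343 against 221 CPM, a ratio of 0.65 (0.39 to 0.87), and Tomm5 was 128 against 85.2 CPM, a ratio of 0.62 (0.17 to 0.98). Timm22 and Timm29, both of the carrier translocase, had ratios of 1.05 (0.21 to 1.64) and 1.45 (0.16 to 2.24) from 18 and 9 UMIs in the cycling cells. The TIM23 receptor gene Timm50 was 26.6 against 20.02 CPM with a ratio of 0.53 and an interval from -0.60 to 1.25, which holds both 0 and the Mito-high ratio. Tomm40 was 21.8 against 27.6 CPM, and the upper bound of its interval (-1.47 to 0.59) lay just under its Mito-high ratio of 0.60. Timm9, past 1.5-fold in Mito-high, was the lowest in Mito-low, at 9.67 against 15.5 CPM from 4 UMIs, a ratio of -0.36 (-2.56 to 0.68). Tomm70a followed Tomm40 among the lowest, with -0.15 (-1.17 to 0.52). The sixth gene past 1.5-fold was Timmdc1, at 0.65 with an interval that held 0 (-0.64 to 1.43). Over the 22 genes measured in both libraries, 17 were higher in cycling cells of both (38.7% of all genes) and 0 were lower in both (34.7%).

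Depth and B cell transcripts moved with the cycling state. Among cells of 10000 or more UMIs, which hold 511 of the 561 cycling cells of Mito-high, 21 of 22 genes were higher in cycling than in other cells, with a median of 0.24, and 0 were 1.5-fold apart. Of all genes, 47.6% were higher there, with a median of -0.02. In Mito-low, with 21 such cycling cells, 16 of 22 were higher (57.6% of all genes), with a median of 0.27 against 0.12. Depth was not matched by this cut. Cycling cells had a median of 17240 UMIs against 12202.5 in other cells of Mito-high, and 14661 against 11750.5 in Mito-low. In Mito-high at this depth, Timm50 had 45.6 CPM in cycling against 31.6 in other cells, a ratio of 0.53 (0.34 to 0.72). Timm8b had 94.4 against 68.4 CPM, a ratio of 0.46 (0.34 to 0.59). In the same Mito-high cells Tomm20 was 384 against 377 CPM, and Timm44 was 34.6 against 38.0 CPM. Summed B cell genes were 29.0 CPM in cycling against 19.96 in other cells of Mito-high and 38.7 against 15.9 in Mito-low, where 4 of the 5 genes, all but Cd79b, were at 0 in cycling cells. Without the barcodes that held at least 2 B cell genes, 8 cycling and 29 other cells of Mito-high, the outer membrane median there was again 0.39. Cd79b was detected in 23.5% of the cycling cells of Mito-high, so leaving out this few cells cannot show what part B cell transcripts had. That part was not tested. The nuclear RNA Malat1 took 0.356% of UMIs in cycling against 1.03% in other cells of Mito-high, and its part in the ratios was not tested. When each cell was thinned to 2000 UMIs, cycling cells of Mito-high held a mean of 4.26 different import genes against 3.27 in other cells (14.4 against 7.50 without thinning), and those of Mito-low 3.55 against 3.16 (10.6 against 6.05).

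Effector cells stood nearer to other cells. In Mito-high 19 of 22 genes were higher than in other cells (61.6% of all genes were), with a median of 0.23 against 0.12 for all genes. Timm8b was again at least 1.5-fold higher, as the only one (14.3% of all genes were, and 6.28% were lower), at 82.5 against 54.4 CPM, a ratio of 0.61 (0.31 to 0.88). Tomm5 was 147 against 107 CPM, a ratio of 0.46 (0.24 to 0.66), and Timm13 was 207 against 154 CPM, a ratio of 0.43 (0.25 to 0.60). Timm8a1 went the other way, with 24.2 CPM in effector against 36.6 in other cells, a ratio of -0.55 (-1.15 to -0.09). Tomm34 was 45.4 against 58.6 CPM, a ratio of -0.34, and Tomm20 was 348 against 362 CPM (-0.19 to 0.08). In Mito-low, with 1525 effector cells, the median was 0.04 against 0.03, 13 of 22 genes were higher (56.0% of all genes), and 0 were 1.5-fold apart (3.33% of all genes higher and 2.0% lower). Timm8b and Tomm5 led there too, with ratios of 0.28 (0.14 to 0.41) and 0.20 (0.10 to 0.31), with Timm22 next at 0.17. Timm9 was lowest at -0.30 (-0.61 to -0.03), and Tomm40 and Tomm70a stood at -0.15 each with intervals that held 0. Effector cells were deeper than other cells, with medians of 8339.5 against 5852 in Mito-high and 5283 against 4555 in Mito-low. Summed myeloid genes, nearly all from Cst3, were 120 CPM in effector against 84.0 in other cells of Mito-high, where Lyz2, Csf1r and Adgre1, 3 of the 5, were at 0 in effector cells; their part was not tested. Among cells of 10000 or more UMIs the effector median was 0.10 against 0.12 for all genes in Mito-high, where 15 of 22 members were above other cells (62.9% of all genes). In Mito-low it was -0.07 against 0.05, with 4 of 22 above (58.4% of all genes).

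Resting cells of Mito-high had lower import transcript shares than other cells in 20 of 22 genes (2 were higher, against 31.9% of all genes), with a median of -0.18 against -0.08. None of the 22 was 1.5-fold apart (0.397% of all genes higher and 3.73% lower). Timm17b, the TIM23 core subunit, was 42.6 CPM in resting against 56.8 in other cells, a ratio of -0.41 (-0.53 to -0.31). Timm8b was 42.3 against 54.4 CPM, a ratio of -0.36 (-0.48 to -0.25), and Tomm6 was 180 against 214 CPM, a ratio of -0.25 (-0.30 to -0.19). In resting cells of Mito-low the ratios of these genes were -0.46 for Timm17b, -0.43 for Timm8b and -0.29 for Tomm6, with intervals below 0. Of the 22 genes measured in both libraries, 14 were lower in resting cells of both (53.3% of all genes) and 2 were higher in both (19.7%). Timm9 and Tomm70a were the 2 that stood above 0 in Mito-high, at 0.10 and 0.08, and Tomm20 was level at -0.02. In Mito-low 9 of 23 genes were higher (35.6% of all genes), with a median of -0.06 against -0.14, and 1 was 1.5-fold higher (4.82% of all genes were, and 15.2% were lower). That gene was Tomm40l, at 0.71 with an interval from -0.27 to 1.38 and 14 UMIs in resting cells. Timm8a1 was 32.1 CPM in resting cells of Mito-low against 22.4 in other cells, a ratio of 0.56 whose interval held 0, and Timm21 had 0.35 (-0.52 to 0.96). Timm10 was lowest at -0.54 (-1.83 to 0.24). Resting cells were not shallower than other cells, with a median depth of 6317.5 against 5852 in Mito-high.

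Within states, the median library ratio was highest in effector and lowest in resting cells, a difference that was not tested. In effector cells 20 of 22 genes were higher in Mito-high (45.1% of all genes were), with a median of 0.46 against -0.06, and 2 were at least 1.5-fold higher (7.38% of all genes) and 1 lower (9.66%). Timm9 was 20.4 against 12.5 CPM, a ratio of 0.75 (0.05 to 1.33), and Tomm5 was 147 against 98.1 CPM, a ratio of 0.59 (0.35 to 0.81). Tomm34 was 45.4 against 70.8 CPM, a ratio of -0.62 (-1.05 to -0.26), and Tomm7 and Tomm6 were next lowest at -0.03 and 0.02. The receptor Tomm22 was 201 against 138 CPM, a ratio of 0.54 (0.34 to 0.73), and Timm17a was 68.9 against 47.3 CPM, a ratio of 0.56 (0.20 to 0.87). Effector cells of the libraries differed in depth, with medians of 8339.5 and 5283 UMIs. Among effector cells of 10000 or more UMIs, 51 and 159 cells, the median was 0.47 (20 of 22 higher, against 46.8% of all genes), and in effector cells of 4000 to 6000 UMIs it was 0.07.

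In resting cells the median was 0.00 against -0.06 for all genes, and 11 of 23 genes were higher in Mito-high (42.2% of all genes). The only interval clear of 0 was that of Tomm20, at 357 against 310 CPM, a ratio of 0.20 (0.05 to 0.36). Timm8b and Timm17a had 0.25 and 0.21, and Timm50 and Tomm34 had -0.31 and -0.34, with intervals that held 0. Timm10, at 0.68 (-0.12 to 1.97), was 1.5-fold higher (3.12% of all genes), and Tomm40l, at -0.73 (-1.43 to 0.26), was 1.5-fold lower (7.87%). Timm8a1, 1.69-fold apart over all cells, was 32.0 and 32.1 CPM in resting cells (-0.49 to 0.52). In other cells, which are most of both libraries, it was 36.6 against 22.4 CPM, a ratio of 0.71 (0.60 to 0.81), and the only gene of 22 past 1.5-fold (2.52% of all genes were higher and 8.57% lower). Timm21 and Tomm5 followed at 0.44 and 0.33, and the lowest were Tomm34 at -0.23, Timm17b at -0.08 and Tomm6 at -0.05. In other cells 17 of 22 import genes were higher in Mito-high (30.8% of all genes), with a median of 0.17 against -0.14. Whether the ratio of Timm8a1 differed between resting and other cells was not tested, and the intervals did not overlap.

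In cycling cells, 38 of them in Mito-low, 16 of 23 genes were higher in Mito-high (38.0% of all genes), with a median of 0.19 against -0.17. Of these, 6 were at least 1.5-fold higher (11.3% of all genes) and 1 was lower (23.2%). Timm8a1 was 58.6 against 21.8 CPM, a ratio of 1.28 (0.49 to 2.57), and Tomm40 was 51.0 against 21.8 CPM, a ratio of 1.08 (0.29 to 2.37). Timm9 was 29.3 against 9.67 CPM, a ratio of 1.28 (0.23 to 3.48), from 4 UMIs in Mito-low. The other 3 past 1.5-fold, Timm10, Timm21 and Timm50, had ratios of 0.88, 0.77 and 0.62 with intervals that held 0. Timm29 was 7.19 against 21.8 CPM, a ratio of -1.73 (-2.60 to -0.41), and Timm22 and Timm44 were next lowest at -0.36 and -0.26. Of the 22 genes measured in all 4 states, 8 were higher in Mito-high in each state (12.6% of all genes) and 1, Tomm7, was lower in each (26.3%).

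Several members share sequence or start sites with neighbours. Timm8b starts head to head with Sdhd, which encodes a subunit of succinate dehydrogenase, and the 51 bases from 1 RefSeq start to the other are shown because 2 genes read outward from them. They lie at chr9:50603850-50603900 (GRCm38.p6) and are written on the plus strand, that of Timm8b:
Timm8b and Sdhd: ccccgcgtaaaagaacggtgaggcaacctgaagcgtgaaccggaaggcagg
Sdhd was 57.7 CPM in Mito-high and 22.7 in Mito-low, a log2 ratio of 1.34 (1.26 to 1.43), whereas Timm8b was 0.19. Timm23 and its divergent neighbour Parg, which removes poly(ADP-ribose), had ratios of 0.11 and -0.24. Timm17b and Pqbp1 had -0.12 and 0.05, and Timm9 and 2700049A03Rik had 0.42 and 0.06. In these 4 pairs the intervals of the neighbours were separate. They overlapped in the other 3 of the 7 pairs that start within 500 bases of each other: Tomm40 and Gm20512, with 0.37 and 0.28, Timm29 and Yipf2, with -0.18 and -0.31, and Timm10b and Arfip2, with 0.10 and -0.01. In the GENCODE annotation 18 of the 27 members overlap another gene, 5 of them on the same strand. Of the 60-base words of its transcripts, Tomm6 shares 67.6% with Gm21981, Timm23 55.3% with a group of 8 genes and Timm8a1 40.6% with the gene Gm9797, so the counts of these members are uncertain where reads fit several places.

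Other genes of the import pathway were taken from a list of 40. Of these, 32 reached the level and 21 were higher in Mito-high (31.7% of all genes). None, 0 of them, was 1.5-fold apart in either direction (3.47% and 10.3% of all genes). Their median library ratio was 0.10 against -0.15 for all genes. The largest differences were in the matrix chaperonin pair that folds imported proteins and in Pink1. Hspe1 stood at 464 against 313 CPM, a ratio of 0.57 (0.54 to 0.59), and Hspd1 at 135 against 98.9 CPM, a ratio of 0.44 (0.40 to 0.49). Pink1, the kinase that accumulates on mitochondria whose import fails, was lower, at 22.7 against 31.4 CPM, a ratio of -0.47 (-0.56 to -0.38). Gfer and Chchd4 form the disulfide relay that traps small Tim proteins. Gfer had a ratio of 0.38, and Chchd4 fell under the level at 9.70 and 9.81 CPM.

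In cycling against other cells of Mito-high, 12 of 35 measured genes of this list were at least 1.5-fold higher and 2 lower (16.1% and 11.6% of all genes), with a median of 0.43. Hspd1 was 248 against 125 CPM, a ratio of 0.99 (0.92 to 1.06). Apoo, a subunit of the cristae-organising MICOS complex, had 1.42, and Mtch1, an outer membrane insertase, had 1.13. Chchd4 had 0.86, and Dnajc15, a regulator of the import motor, had 0.82. The other 7 at least 1.5-fold higher were Immt, Mtch2, Mtx2, Micos10, Hspa8, Pmpca and Grpel1, from 0.78 down to 0.62. Immp2l, an inner membrane peptidase, and Pink1 were lower, at -1.02 and -0.94. In Mito-low, 9 of 33 were higher and 2 lower (21.5% and 14.1% of all genes), and the 2 lower were again Immp2l, at -1.70 (-2.77 to -1.01), and Pink1, at -1.37 (-3.57 to -0.33). Dnajc15 and Mtch1 were again among the higher, at 1.15 (0.77 to 1.47) and 1.51 (1.05 to 1.89). The other 7 were Apool, Pmpca, Pmpcb, Grpel1, Dnaja3, Micos10 and Immp1l, from 1.13 down to 0.60, and the intervals of Dnaja3 and Immp1l held 0.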

How the data were processed

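The authors deposited 1 gene-by-barcode matrix of raw UMI counts per library, made with Cell Ranger 7.1.0 per the file headers; the submitters' processing notes name the build mm10 and Seurat 4.3.0.1. For annotation release, intron counting and strand setting: not given in the sources used here. Counts were summed over kept barcodes per library and state and divided by the summed UMIs of all genes (89896278 in Mito-high and 60526210 in Mito-low). Log2 ratios used a pseudocount of 1 on each sum, with exact conditional-binomial 95% intervals, and levels exact Poisson intervals. A gene reached the level at a mean of 10 CPM and 20 UMIs over both groups. Doublets were not called. The 38 shared barcodes were kept, and 120 and 11 cells that met several state rules followed the stated precedence. Python 3.11.15, SciPy 1.17.1 and edgeR 4.0.16 (TMM scaling as an alternative) were used. Ratios and intervals were tested on simulated data.

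The members and lists were chosen with earlier results of these data known. Named are the role anchors Tomm20, Tomm22, Tomm40, Tomm70a, Timm23, Timm17a, Timm50, Timm44, Timm22 and Timm10, and in each comparison the 3 highest and 3 lowest members and those at least 1.5-fold apart. Those named beyond this, the depth bins given for single genes and the cells of 10000 or more UMIs were chosen after their values were seen.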

Additional observations from a re-analysis of the deposited data

How the results depend on the processing

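With 1 library per group, no library could be left out, and no paired analysis was possible because each group has 1 library. Counting error alone limited the ratios to a median half-width of 0.07 (log2) over all cells, 0.62 for cycling cells of Mito-low and 0.47 between resting cells. For the counts of members 1.5-fold apart below, the share of all genes under the same setting is not given. These counts are therefore not read as results about the members.

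Scaling moved every library ratio. The library medians of all, outer, and inner with intermembrane space members were 0.36, 0.34 and 0.37 with TMM, 0.31, 0.28 and 0.32 with CPM that left out mt-, ribosomal protein, T cell receptor and immunoglobulin genes, and 0.32, 0.30 and 0.33 with the all-gene median set to 0. The number of members 1.5-fold apart became 3, 2 and 2 over all cells, and the medians in other cells became 0.33, 0.29 and 0.31. Cycling cells then had 3 such members in Mito-low with TMM and with centring, and 3 in Mito-high with the reduced CPM; resting cells of Mito-low had 2 under each. TMM shifted effector ratios in Mito-high by -0.15 and resting ratios in Mito-low by 0.13.

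In cells of 4000 to 6000 UMIs the library medians were -0.01, 0.05 and -0.01 with 0 members 1.5-fold apart. The library medians were then 0.07 in effector and 0.02 in other cells, and cycling and resting medians in Mito-high were 0.21 and -0.06. Members 1.5-fold apart numbered 11 in cycling cells of each library (6 and 4 cells). They numbered 6 in effector cells of Mito-high (30 cells) and 7 in resting cells of Mito-low (72 cells). No median could be had between cycling cells in this window. Reversed there were Tomm5 between effector cells (-0.30), Timm8b in cycling cells of Mito-high (-0.46) and Tomm5 in those of Mito-low (-0.49). In cells of 10000 or more UMIs, an alternative added after seeing the data, the library medians were 0.26, 0.22 and 0.28 with 2 members 1.5-fold apart; the cycling median in Mito-high was 0.24 with 0 apart, and 1 effector and 4 resting members of Mito-low were apart.

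With every cell weighted alike the all-member and inner medians were 0.10 and 0.10, and 2 resting members of Mito-low were apart. Thinned to 2000 UMIs, they were 0.05 and 0.05, with 0.07 in other cells; 12 cycling, 1 effector and 9 resting members of Mito-low and 3 effector members of Mito-high were apart. Thinning reversed Timm10 between resting cells (-0.57) and Timm9 between cycling cells (-0.47). With the 4 states weighted alike the library medians were 0.27, 0.25 and 0.32, with 3 members apart. Without the level filter the outer median was 0.06, with 4 members apart over all cells, 2 and 1 in effector and 1 and 3 in resting cells of Mito-high and Mito-low. Stricter state rules left 11 effector members of Mito-high (22 cells) and 2 resting members of Mito-low (84 cells) apart. They reversed Tomm34 between effector cells (0.14). Further member ratios took the other sign under some alternatives, and not all are listed. Timm17a between effector cells did so under 2 alternatives, down to -0.74. In Mito-low, Timm10 in resting cells did so under 2, up to 0.71. Tomm40 and Timm9 in cycling cells of Mito-low did so under 2 and 4, up to 1.3 and 2.99. The resting count of Mito-low was 2 with a pseudocount of 0.5 and 0.0 with a mean of 30 CPM or 1000 genes. The other alternatives (at most 10% mt- UMIs, B cell genes, several state rules) moved none of the counts by over 1.5 times. The causes were not tested.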
